A study of Mus musculus with 4 samples.

Results

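The genes described here encode enzymes that handle foreign compounds and retinoids in mouse intestinal epithelium. They were all genes whose symbol starts with Cyp2, Cyp3, Cyp4, Ugt1, Ugt2, Gst, Ces1, Ces2, Sult, Adh or Aldh1a followed by letters or digits, with 100 or more UMIs (unique molecular identifiers, each standing for 1 captured RNA molecule) summed over the 4 libraries. Of 31040 genes listed, 178 matched by symbol and 77 reached the minimum. They comprised 22 cytochrome P450 genes of families 2 to 4, 4 other P450 genes whose symbols begin with the same letters (Cyp20a1, Cyp26b1, Cyp27a1 and Cyp39a1), 7 Ugt, 21 Gst, 11 Ces, 5 Sult, 4 Adh and 3 Aldh1a genes. Just inside the minimum stood Cyp2e1 with 117 and Cyp4f40 with 174 UMIs, and just outside it Cyp2j5 with 90, Adhfe1 with 87 and Ugt1a1 with 78 UMIs.

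Cells were taken from organoids, cultured mini-guts grown from intestinal crypts of 2 mice that were 10 weeks old. Both groups carried floxed Cbl and Cblb alleles and the R26Cre ERT2 transgene, which expresses a tamoxifen-activated recombinase. The knockout libraries (knockouts 1 and 2) came from organoids grown with 400 nM 4-hydroxytamoxifen for 3 days to delete both genes, which encode ubiquitin ligases, and the control libraries (controls 1 and 2) from organoids grown without it. Deletion and drug exposure thus cannot be told apart, and 4-hydroxytamoxifen is itself a drug metabolite. The numbers 1 and 2 mark the mice, so n = 2 libraries a group throughout.

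In textbook terms, phase I enzymes add or uncover a reactive group (P450 oxygenases, carboxylesterases, alcohol and aldehyde dehydrogenases), and phase II enzymes attach glucuronic acid (Ugt), glutathione (Gst) or sulfate (Sult). In the small intestine these enzymes act mainly in absorptive enterocytes, which meet swallowed compounds before the liver does. Alcohol dehydrogenases and Aldh1a enzymes also turn dietary retinol into retinaldehyde and then retinoic acid, and Cyp26 enzymes break retinoic acid down.

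After filtering, 1628 and 1903 cells remained in knockouts 1 and 2, against 1149 and 682 in controls 1 and 2, and a typical cell (the median) held 16080 and 17514 UMIs in knockouts, against 19571 and 27457.5 in controls. Cells were clustered without the enzyme genes. A Fabp6-type enterocyte-like class held 67 and 227 cells in knockouts, against 73 and 218 in controls, and a Fabp1-type class held 45 and 12 cells in knockouts, against 105 and 16 in controls. Together these enterocyte-like cells made up 6.88% and 12.6% of cells in knockouts, against 15.5% and 34.3% in controls. An absorptive cluster led by Mgat4c, Dmbt1 and Aadac had too few markers in its leading genes to be named and is called cluster 9. In mouse 1 the mix of enterocyte-like cells also differed, with 45 of 112 cells of Fabp1 type in the knockout and 105 of 178 in the control. Cbl, the deleted gene with the higher count, had 12.3 and 10.5 CPM (a gene's UMIs scaled to a fixed total of 1000000 UMIs in the cells summed) in knockouts, against 17.0 and 19.9 CPM in controls. Cblb had 3.34 and 0.463 CPM in knockouts, against 8.53 and 3.93 CPM in controls. Both knockouts lay below both controls for each gene, in the direction of the labels, though reads outside the deleted part are still counted. With the mouse as a block in edgeR's quasi-likelihood test, the log2 fold changes were -0.73 ± 0.14 (SE) for Cbl and -2.02 ± 0.38 for Cblb (adjusted p = 0.0248 and 0.0242), and without the block the adjusted p were 0.563 and 0.584. Markers of cells from outside the epithelium were read at different levels. The 5 hepatocyte markers summed to 29.4 and 21.0 CPM in knockouts, against 29.6 and 15.1 CPM in controls, with Fgb at 0 in all 4 libraries. The 6 mesenchymal markers summed to 0.0719 and 0.174 CPM in knockouts, against 0 and 0.0914 CPM in controls, with Col3a1 at 0 in all 4 libraries. The 5 endothelial markers summed to 0.575 and 0.869 CPM in knockouts, against 0.622 and 0.503 CPM in controls, with Cdh5 and Kdr at 0 in all 4 libraries. The 6 immune markers summed to 1.80 and 1.65 CPM in knockouts, against 1.76 and 2.42 CPM in controls, with Cd3e and Itgax at 0 in all 4 libraries, and all 5 erythroid markers were at 0 in every library. No pair of libraries shared more than 1 cell barcode.

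Over all cells, the 77 enzyme genes together supplied 0.321% and 0.506% of UMIs in knockouts, against 0.549% and 0.952% in controls. Both knockouts lay below both controls, although knockout 2 lay close to control 1. With the group alone as the model, edgeR's quasi-likelihood test with Benjamini-Hochberg adjustment called 0 of 13246 genes (0.00% higher, 0.00% lower) and 0 of the 77 enzyme genes, whose smallest adjusted p was 0.563. At an unadjusted p under 0.05 that model had 32 enzyme genes, all of them lower (32 of 77, against 4.76% of all genes). DESeq2 with the group alone called 15 of 77 lower, against 0.512% of all genes. With the mouse as a block, 45 of the 77 fell and 0 rose, where 8.29% of all genes fell and 4.43% rose. The median log2 fold change in that fit was -0.95 for the enzyme genes and -0.01 for all genes tested. In CPM, both knockouts lay below both controls for 41 of the 77 genes and above them for 2, where 19.1% and 22.1% of all genes did so. In the sentences that follow, rose, fell and adjusted p refer to the fit with the mouse as a block, and log2 fold changes are knockout over control with their standard error. In sums over all cells, fewer cells of a type and less RNA per cell cannot be told apart.

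**Figure D1:**
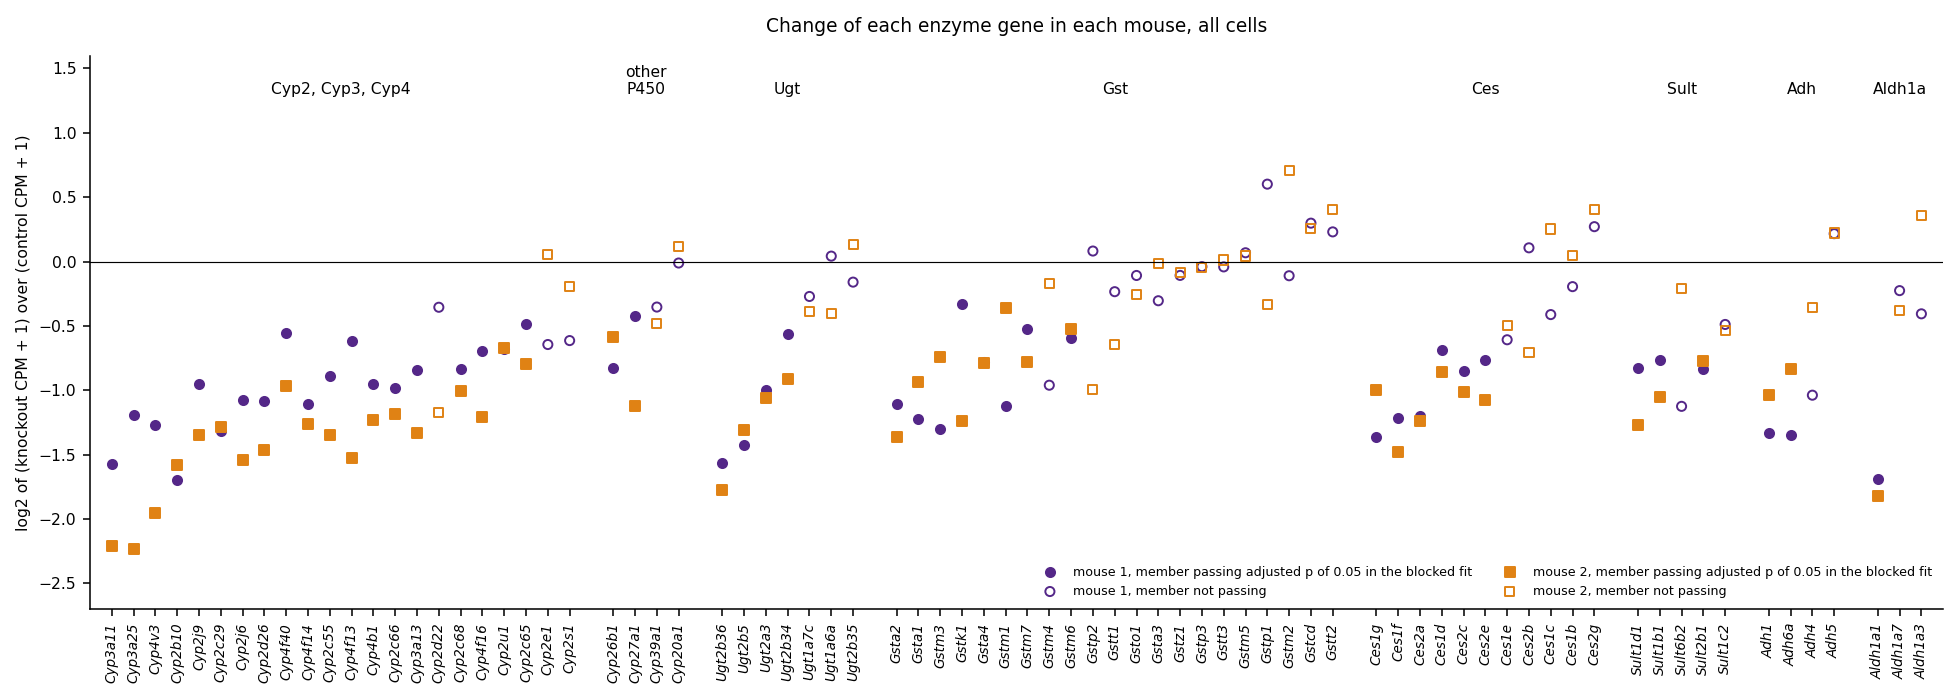
Log2 ratio of knockout to control CPM (1 CPM added to each) for each of the 77 enzyme genes over all cells, with circles for mouse 1 and squares for mouse 2, grouped by enzyme family and ordered by fitted change; filled symbols passed the fit with the mouse as a block. Of the 77 genes, 45 were lower and passed that fit, against 8.29% of all genes. Cyp3a11 (-2.01), Ugt2b36 (-1.89) and Aldh1a1 (-1.80) have large fitted falls.

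Among the P450 enzymes of families 2 to 4, 19 of 22 fell over all cells, with log2 fold changes from -2.01 to -0.49 across the 22. Cyp3a11, an oxidase of steroids and many drugs, had 13.9 and 20.7 CPM in knockouts, against 43.3 and 99.6 CPM in controls, and fell by a log2 fold change of -2.01 ± 0.15 (adjusted p = 0.00175). Both knockouts lay below both controls. Its neighbour Cyp3a25 had 11.8 and 14.9 CPM in knockouts, against 28.3 and 73.6 CPM in controls, again with no overlap (-1.85 ± 0.23, adjusted p = 0.00686). Cyp2b10, in the liver a classic target of the xenobiotic receptor CAR, had 9.92 and 32.1 CPM in knockouts, against 34.4 and 97.8 CPM in controls, and stood at 28.8% and 32.8% of control in mice 1 and 2 (-1.73 ± 0.09, adjusted p = 8.44e-04). For Cyp2b10 the groups did not overlap, though knockout 2 lay just under control 1. Cyp4v3, related to the human fatty acid hydroxylase CYP4V2, had 5.18 and 6.92 CPM in knockouts, against 13.9 and 29.6 CPM in controls (-1.82 ± 0.17, adjusted p = 0.00325).

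Of the P450 genes with the most UMIs, all 4 fell. Cyp2j6, an oxidase of fatty acids, had 130.0 and 209 CPM in knockouts, against 275 and 610.0 CPM in controls (-1.35 ± 0.12, adjusted p = 0.00289). Cyp4f14, which inactivates leukotriene B4, had 97.3 and 222 CPM in knockouts, against 210.2 and 533 CPM in controls (-1.23 ± 0.09, adjusted p = 0.00171). For Cyp4f14 knockout 2 exceeded control 1, so the groups overlapped and the fall shows within each mouse. The same held for Cyp3a13, with 47.8 and 151 CPM in knockouts, against 86.6 and 381 CPM in controls (-1.14 ± 0.12), and for Cyp2c29, with 25.6 and 139 CPM in knockouts, against 65.2 and 339.9 CPM in controls (-1.36 ± 0.08, adjusted p = 0.00124). Both genes stood far higher in mouse 2 than in mouse 1, and with control 2 left out and the group alone as the model their log2 fold changes turned to 0.22 (Cyp3a13) and 0.37 (Cyp2c29). The P450 genes that did not pass were Cyp2s1, Cyp2e1 and Cyp2d22. Of the other 4 P450 genes, Cyp27a1, the mitochondrial sterol hydroxylase, and Cyp26b1, which degrades retinoic acid, fell. Cyp26b1 rested on few molecules, with 1.37 and 1.07 CPM in knockouts, against 3.18 and 2.10 CPM in controls (-1.14 ± 0.28, adjusted p = 0.0451). Cyp27a1 had 3.67 and 3.94 CPM in knockouts, against 5.27 and 9.74 CPM in controls (-0.97 ± 0.22, adjusted p = 0.0403). The orphan Cyp20a1 had 14.4 and 16.6 CPM in knockouts, against 14.6 and 15.3 CPM in controls, and the oxysterol hydroxylase Cyp39a1 5.71 and 3.39 CPM in knockouts, against 7.58 and 5.12 CPM in controls, and neither passed.

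The other P450 genes of families 2 to 4 were spread over the same range and are named by their values. Cyp2d26 had 33.03 and 34.03 CPM in knockouts, against 71.2 and 95.4 CPM in controls (-1.34 ± 0.10, adjusted p = 0.00199), with no overlap. In the Cyp2c group, whose enzymes oxidise drugs and arachidonic acid, Cyp2c55 had 13.5 and 43.4 CPM in knockouts, against 25.8 and 112 CPM in controls (-1.21 ± 0.11), and Cyp2c66 had 14.02 and 24.3 CPM in knockouts, against 28.7 and 56.5 CPM in controls (-1.17 ± 0.09). Cyp2c65 had 25.98 and 28.7 CPM in knockouts, against 36.9 and 50.7 CPM in controls, the smallest fall of the 5 Cyp2c genes (-0.70 ± 0.10, adjusted p = 0.0111). For Cyp2c65 and Cyp2c66 the groups did not overlap, and for Cyp2c55 knockout 2 lay above control 1. Cyp4b1 had 14.3 and 25.5 CPM in knockouts, against 28.5 and 61.4 CPM in controls (-1.18 ± 0.10, adjusted p = 0.00232). Cyp4f16 (-1.01), Cyp4f13 (-1.18), Cyp4f40 (-1.33), Cyp2j9 (-1.54), Cyp2u1 (-0.81) and Cyp2c68 (-1.02) fell as well. Cyp2d22 had a log2 fold change of -1.08 ± 0.32 and missed the threshold (adjusted p = 0.0714), on 1.48 to 4.57 CPM.

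Among the glucuronosyltransferases, 4 of 7 fell, and the 3 that did not pass were Ugt1a6a, Ugt1a7c and Ugt2b35. Ugt2b36 had 6.002 and 4.52 CPM in knockouts, against 19.7 and 17.9 CPM in controls (-1.89 ± 0.13, adjusted p = 0.00158), and Ugt2b5 had 11.5 and 10.7 CPM in knockouts, against 32.7 and 27.98 CPM in controls (-1.48 ± 0.11, adjusted p = 0.00171). In both genes the controls stood far above both knockouts. Ugt2b34 had 78.9 and 87.01 CPM in knockouts, against 117 and 164 CPM in controls, a smaller log2 fold change of -0.78 ± 0.10 (adjusted p = 0.00826). Ugt2b35, the next gene on the chromosome, had 17.4 and 17.03 CPM in knockouts, against 19.5 and 15.5 CPM in controls, and the groups overlapped (-0.06 ± 0.12). The Ugt1a genes share their downstream exons, so reads of Ugt1a6a and Ugt1a7c are uncertain.

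The glutathione transferases were divided, with 8 of 21 lower over all cells. Gsta1 held the most UMIs of the enzyme genes and had 279 and 972 CPM in knockouts, against 652 and 1856 CPM in controls (-1.12 ± 0.11, adjusted p = 0.00325). Knockout 2 lay above control 1, so the groups overlapped. Gsta4, which clears the lipid peroxidation product 4-hydroxynonenal, had 109 and 384 CPM in knockouts, against 188 and 662 CPM in controls, at 57.9% and 57.9% of control in mice 1 and 2 (-0.83 ± 0.08, adjusted p = 0.00381). Here too mouse 2 stood higher, and without control 2 the group alone gave 0.42 for Gsta4. Gstm1 had 268 and 334 CPM in knockouts, against 586 and 428 CPM in controls (-0.78 ± 0.18, adjusted p = 0.0382). Its groups did not overlap, and the reduction was larger in mouse 1. Gsto1, an omega-class enzyme that also reduces dehydroascorbate, had 372 and 355 CPM in knockouts, against 401 and 425 CPM in controls, a log2 fold change of -0.22 ± 0.09 that did not pass (adjusted p = 0.142). Gsta3 had 104 and 179 CPM in knockouts, against 129 and 181 CPM in controls (-0.20 ± 0.10, adjusted p = 0.22), and Gstm5 had 94.2 and 88.3 CPM in knockouts, against 89.8 and 85.7 CPM in controls (0.02 ± 0.08). Both sets of values overlapped. Gstt2 had 130.4 and 96.3 CPM in knockouts, against 111 and 72.3 CPM in controls (0.28 ± 0.09, adjusted p = 0.0766), the most positive fold change among the Gst genes. The 13 Gst genes that did not pass included all 3 Gstp and all 3 Gstt genes, and Gstcd, which was matched by its letters. Gsta1 and Gsta2, the Gstm genes and the Gstp genes are close copies of each other, so the split of reads within each set is uncertain.

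Carboxylesterases cleave ester drugs and lipids, and 6 of 11 fell. Ces2a had 162 and 195 CPM in knockouts, against 374 and 461 CPM in controls, at 43.4% and 42.3% of control in mice 1 and 2 (-1.26 ± 0.08, adjusted p = 0.00156). The groups did not overlap. Ces2c had 119.6 and 234 CPM in knockouts, against 217 and 473 CPM in controls (-0.98 ± 0.09, adjusted p = 0.00276), and here knockout 2 exceeded control 1. Ces2e had 101 and 99.8 CPM in knockouts, against 171 and 211 CPM in controls (-0.97 ± 0.10), and Ces1f had 25.3 and 27.9 CPM in knockouts, against 60.1 and 79.6 CPM in controls (-1.42 ± 0.09, adjusted p = 0.0015), both without overlap. Ces1b, Ces1c, Ces1e, Ces2b and Ces2g did not pass.

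Of the sulfotransferases, 3 of 5 fell. Sult1b1, which sulfates phenols and thyroid hormones, had 35.7 and 61.7 CPM in knockouts, against 61.2 and 129 CPM in controls (-0.96 ± 0.09, adjusted p = 0.0033). Sult1d1, which in the mouse sulfates catecholamines, had 30.4 and 55.9 CPM in knockouts, against 54.8 and 137 CPM in controls (-1.12 ± 0.11). Sult2b1, which sulfates sterols, had 20.3 and 52.2 CPM in knockouts, against 37.1 and 89.7 CPM in controls (-0.86 ± 0.08). In all 3 genes the reduction showed within each mouse, while knockout 2 lay above control 1, so the groups overlapped. Sult1c2 had 5.43 and 3.19 CPM in knockouts, against 8.02 and 5.07 CPM in controls and missed the threshold (adjusted p = 0.0518), as did Sult6b2.

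The dehydrogenases of alcohols and retinoids differed among themselves. Aldh1a1, which makes retinoic acid from retinaldehyde, had 79.1 and 116 CPM in knockouts, against 257 and 413 CPM in controls, and stood at 30.8% and 28.1% of control in mice 1 and 2. Its log2 fold change of -1.80 ± 0.09 (adjusted p = 8.44e-04) was among the largest of the 77, and the groups were far apart. Aldh1a7, a close copy of Aldh1a1 on the same stretch of chromosome 19, had 17.6 and 15.99 CPM in knockouts, against 20.7 and 21.1 CPM in controls (-0.36 ± 0.11, adjusted p = 0.0725). Aldh1a3, another retinaldehyde dehydrogenase, differed between the mice far more than between the groups, with 0.970 and 34.9 CPM in knockouts 1 and 2, against 1.61 and 27.02 CPM in controls 1 and 2. Adh1, which oxidises ethanol and retinol, had 38.1 and 14.6 CPM in knockouts, against 97.6 and 31.00 CPM in controls (-1.27 ± 0.10, adjusted p = 0.00182), and Adh6a had 18.9 and 24.5 CPM in knockouts, against 49.6 and 44.5 CPM in controls (-1.16 ± 0.14, adjusted p = 0.00555). For Adh1 the highest knockout exceeded the lower control, and for Adh6a the groups did not overlap. Adh4 had 2.84 and 2.03 CPM in knockouts, against 6.88 and 2.88 CPM in controls and did not pass (adjusted p = 0.056). Adh5, the glutathione-dependent formaldehyde dehydrogenase found in most cells, had 186 and 162 CPM in knockouts, against 160.2 and 139 CPM in controls. It was higher in the knockout of each mouse, but the log2 fold change of 0.18 ± 0.08 did not pass (adjusted p = 0.179).

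The 77 genes are all protein-coding in GENCODE M21 (mouse build GRCm38, the mm10 of the submitters' processing notes), and 59 of them lie in 16 groups of neighbours, with gaps of 500000 bases or less. Neighbours did not always change together over all cells, where 45 of the 77 genes and 8.29% of all genes fell. In the Cyp2c group at chr19:39007019-39741054, all 5 members (Cyp2c29, Cyp2c55, Cyp2c65, Cyp2c66 and Cyp2c68) fell, as did all 4 Cyp4f members at chr17:32536558-32947402 and all 3 Gsta members at chr9:78182774-78355788 (Gsta1, Gsta2 and Gsta4). Of the 7 members at chr5:86889767-87569027, which are Ugt2 and Sult1 genes, 6 fell and Ugt2b35 did not pass. In the Gstm group at chr3:107895821-108044894, 4 of 7 fell, and in the Adh group at chr3:138260991-138455499 Adh1 and Adh6a fell while Adh4 and Adh5 did not pass. None of the 3 Gstp genes at chr19:4035407-4059569 and none of the 3 Gstt genes at chr10:75774115-75837424 passed.

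Promoter windows from RefSeq (build GRCm38.p6, 250 bases before to 50 after a gene's start) were found for 68 of the 77 genes, and 7 motifs were searched on both strands. The HNF4 motif (CAAAGTCCA) stood in 4 of 68 members (5.88%) and in 0.555% of all 27025 genes with a window. The motif of Gata4 and its relatives (AGATAA) was in 16 members (23.5%, against 12.7% of all genes). The core promoter motif TATAAA was in 18 members (26.5%, against 15.7%). The HNF1 motif (GTTAAT) was in 9 members (13.2%, against 8.24%). The antioxidant response motif TGACNNNGC was in 8 members (11.8%, against 13.99%). The nuclear receptor motif AGGTCA was in 12 members (17.6%, against 18.1%), and the Cdx2 motif TTTATG in 9 (13.2%, against 13.6%). None of the 7 motifs lies within another on either strand, with 1 exception. The free letters (N) of TGACNNNGC can complete TGACCT, which is AGGTCA on the other strand, so these counts can share sites. No test was made of these shares, since neighbouring copies share promoter sequence. The 4 members with the HNF4 motif all fell over all cells, where 41 of the 68 members with a window and 8.29% of all genes fell. The windows of these 4 are printed here on the gene's own strand. This motif was chosen because it had the largest ratio of its share in members to its share in all genes. Capitals mark matches to any of the 7 motifs on either strand. The 4 windows are Sult1b1 at chr5:87536173-87536472 (minus strand), Cyp3a11 at chr5:145879805-145880104 (minus), Cyp2c65 at chr19:39060756-39061055 (plus) and Cyp2c68 at chr19:39741052-39741351 (minus). The last pair are members of the Cyp2c group, with other members between them. Sult1b1 has 2 windows in the table, and this one starts 1973 bases from the GENCODE gene start.
Sult1b1: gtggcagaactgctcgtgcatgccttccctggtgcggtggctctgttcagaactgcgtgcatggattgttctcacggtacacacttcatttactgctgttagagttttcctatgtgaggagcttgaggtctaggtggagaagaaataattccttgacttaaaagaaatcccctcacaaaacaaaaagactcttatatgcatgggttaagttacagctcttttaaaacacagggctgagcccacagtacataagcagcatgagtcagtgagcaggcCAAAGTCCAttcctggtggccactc
Cyp3a11: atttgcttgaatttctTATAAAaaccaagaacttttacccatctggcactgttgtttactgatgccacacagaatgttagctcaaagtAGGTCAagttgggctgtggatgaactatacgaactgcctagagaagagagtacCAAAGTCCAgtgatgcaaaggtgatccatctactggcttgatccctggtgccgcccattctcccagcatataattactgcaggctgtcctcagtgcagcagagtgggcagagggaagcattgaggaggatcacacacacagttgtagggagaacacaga
Cyp2c65: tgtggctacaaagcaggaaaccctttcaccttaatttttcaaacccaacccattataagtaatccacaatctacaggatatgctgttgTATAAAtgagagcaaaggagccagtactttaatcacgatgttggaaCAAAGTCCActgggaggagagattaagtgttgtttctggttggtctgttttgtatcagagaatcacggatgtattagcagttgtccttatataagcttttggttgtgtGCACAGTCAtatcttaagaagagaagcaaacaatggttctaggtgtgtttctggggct
Cyp2c68: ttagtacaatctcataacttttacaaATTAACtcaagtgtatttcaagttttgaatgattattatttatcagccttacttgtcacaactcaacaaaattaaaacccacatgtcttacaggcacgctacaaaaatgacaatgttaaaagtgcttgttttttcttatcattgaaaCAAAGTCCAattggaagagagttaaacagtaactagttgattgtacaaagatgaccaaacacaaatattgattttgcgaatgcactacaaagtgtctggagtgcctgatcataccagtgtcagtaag

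By cell class, the enzyme genes were read chiefly in enterocyte-like cells. Their summed share of UMIs was 5.03% and 6.07% in Fabp1-type cells of knockouts, against 4.60% and 4.31% in controls, and 2.79% and 3.46% in Fabp6-type cells of knockouts, against 2.56% and 3.44% in controls. Cluster 9 had 1.20% and 1.36% in knockouts, against 0.857% and 1.18% in controls, and all cells outside the enterocyte-like classes had 0.200% and 0.246% in knockouts, against 0.208% and 0.322% in controls. With these clusters the knockout of each mouse lay above its control in both enterocyte-like types and in cluster 9, and below it in the remaining cells. This direction depended on the clustering, and the name Fabp1 type did not cover the same cells in each clustering. It held 178 cells here and 994 at the coarser clustering, which put both types and cluster 9 under that name. A change of direction within the same cells was not tested. In the Fabp1 type the mean share was 5.55% in knockouts and 4.45% in controls, but 2.89% in knockouts and 3.04% in controls at the coarser Leiden resolution of 0.6, 3.65% in knockouts and 3.75% in controls at 1.5, and 2.30% in knockouts and 2.48% in controls with no doublet removal. By family, P450 genes of families 2 to 4 supplied 0.957% and 1.12% of UMIs in enterocyte-like cells of knockouts, against 0.894% and 1.26% in those of controls. Gst genes supplied 1.254% and 1.44% in knockouts, against 1.41% and 1.18% in controls, and Ces genes 0.828% and 0.603% in knockouts, against 0.722% and 0.565% in controls. The groups overlapped in each of these families. Aldh1a genes supplied 0.206% and 0.144% in knockouts, against 0.246% and 0.2005% in controls, and overlapped too, though each knockout lay below its control. The enterocyte-like cells supplied 39.8% and 55.3% of the enzyme UMIs in knockouts, against 65.8% and 72.9% in controls.

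**Figure D2:**
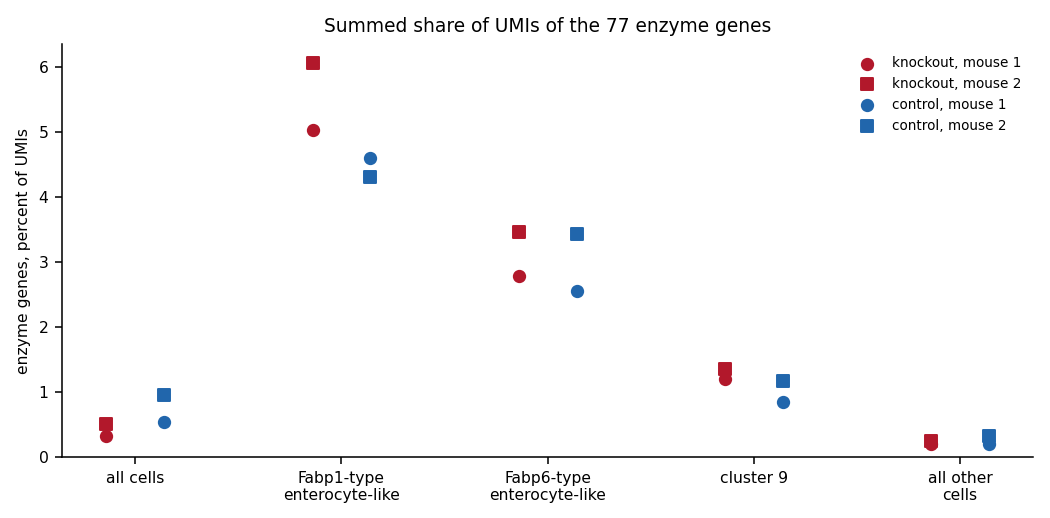
Percent of UMIs that came from the 77 enzyme genes (vertical axis) in all cells, 2 enterocyte-like classes, cluster 9 and all cells outside the enterocyte-like classes; knockout libraries are in red and left of control libraries in blue, circles for mouse 1 and squares for mouse 2. Fabp1-type cells stand highest in each library (4.31% to 6.07%), and in all cells each knockout lies below the control of its mouse.

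Mean levels over the 4 libraries were highest in an enterocyte-like class for 61 of the 77 genes, 50 in the Fabp1 type and 11 in the Fabp6 type. In each of the 4 libraries, 63 genes were higher in enterocyte-like cells than in all other cells and 7 were lower. The median ratio between these sets was 15.8, and 42 genes were 10 or more times higher in enterocyte-like cells. These ratios describe clusters found in the same cells, with no test. Over all cells, where 8.29% of all genes fell, 37 of these 42 genes fell (median log2 fold change -1.17). Of the 17 genes that were 2 to 10 times higher 7 fell (-0.57), and of the 18 genes under 2 times 1 fell (-0.07).

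**Figure D3:**
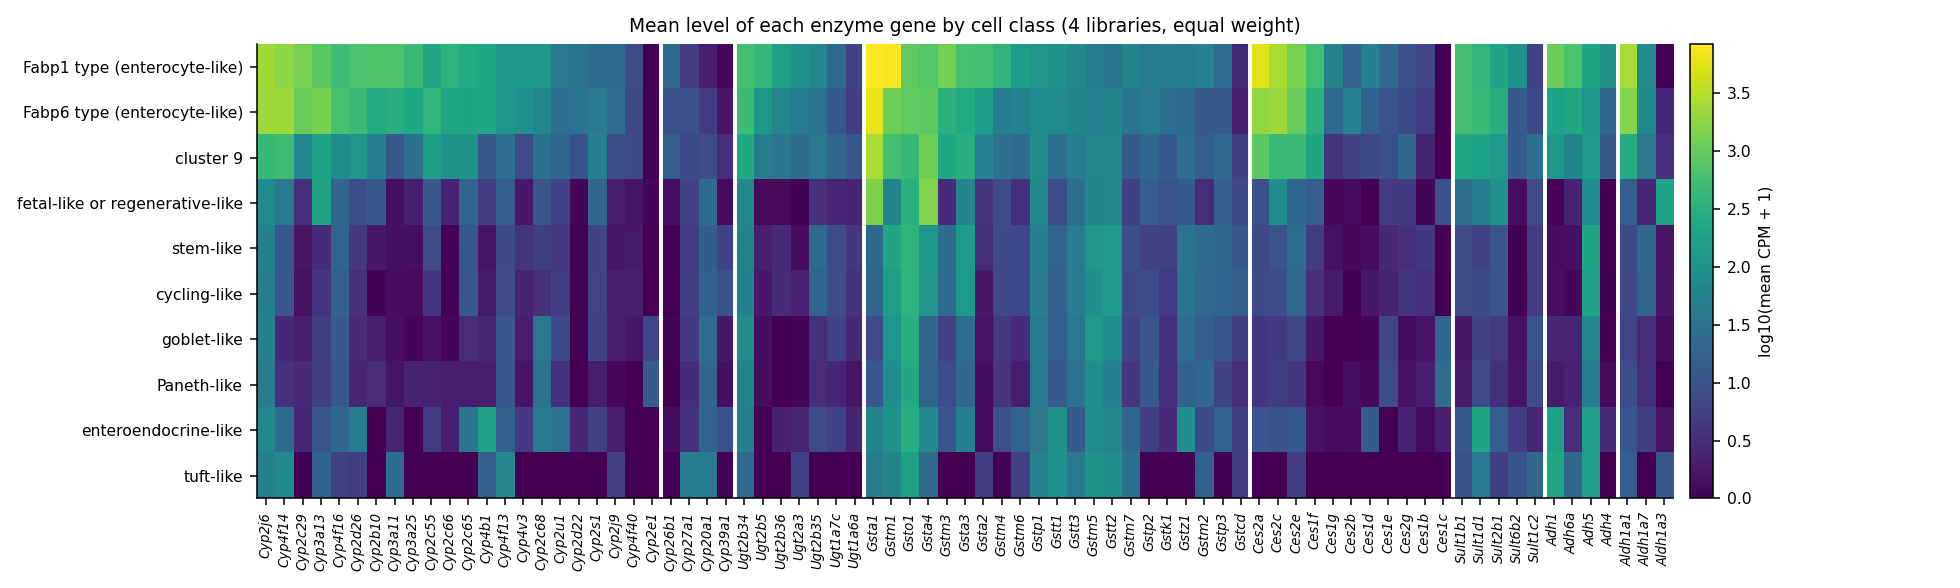
Mean level over the 4 libraries, as log10(mean CPM + 1), of each of the 77 enzyme genes (columns, by family and then by level in enterocyte-like cells) in 10 cell classes (rows). Yellow and green concentrate in the 2 upper rows, the enterocyte-like classes, while Gsto1, Adh5 and Gstt2 have UMIs in each row.

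The Fabp1 and Fabp6 types, as named with these clusters, differed in several enzyme genes. Those names depended on the resolution. At 0.6 no cluster was named Fabp6 type, and at 1.5 the largest cluster named Fabp1 type held 396 cells and was led by Clca4a, Ada and Pmp22, with Anpep, Apoa1, Clca4b and Selenop also among its leading genes, as in the Fabp6 type here. Gstm1 was at 6142 and 9394 CPM in Fabp1-type cells of knockouts and 7334 and 8225 CPM in those of controls, while Fabp6-type cells had 845 and 1632 CPM in knockouts and 787 and 1344 CPM in controls. All 4 libraries thus had more Gstm1 in the Fabp1 type. The same order in all 4 libraries held for 30 genes, among them Ces2a with 5695 and 6398 CPM in Fabp1-type cells of knockouts and 4772 and 4676 CPM in those of controls, against 2105 and 1916 CPM in Fabp6-type cells of knockouts and 1677 and 2003 CPM in those of controls. Adh1 followed, with 1559 and 892 CPM in the Fabp1 type of knockouts and 1327 and 615 CPM in that of controls, against 279 and 98.2 CPM in the Fabp6 type of knockouts and 283 and 102 CPM in that of controls. In both types Adh1 was higher in mouse 1 than in mouse 2. Gstm4, Gstm3, Ugt2b5, Adh4, Aldh1a1 and Cyp2b10 were ordered likewise. The reverse order, Fabp6 type above Fabp1 type in each library, held for 7 genes, Cyp3a13, Cyp2c55, Cyp4f14, Ces2b, Sult2b1, Gstt2 and Aldh1a3. Aldh1a3 had 0 UMIs in the Fabp1 type, where 3 UMIs over the libraries would be 1.39 CPM. In the Fabp6 type it had 16 UMIs (0.388 to 2.65 CPM), so its order is not resolved at this depth. Cyp3a13 had 1121 and 1635 CPM in the Fabp6 type of knockouts and 945 and 1692 CPM in that of controls, against 1035 and 1197 CPM in the Fabp1 type of knockouts and 625 and 373 CPM in that of controls. Fabp1-type values in mouse 2 rest on 12 knockout and 16 control cells.

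**Figure D4:**
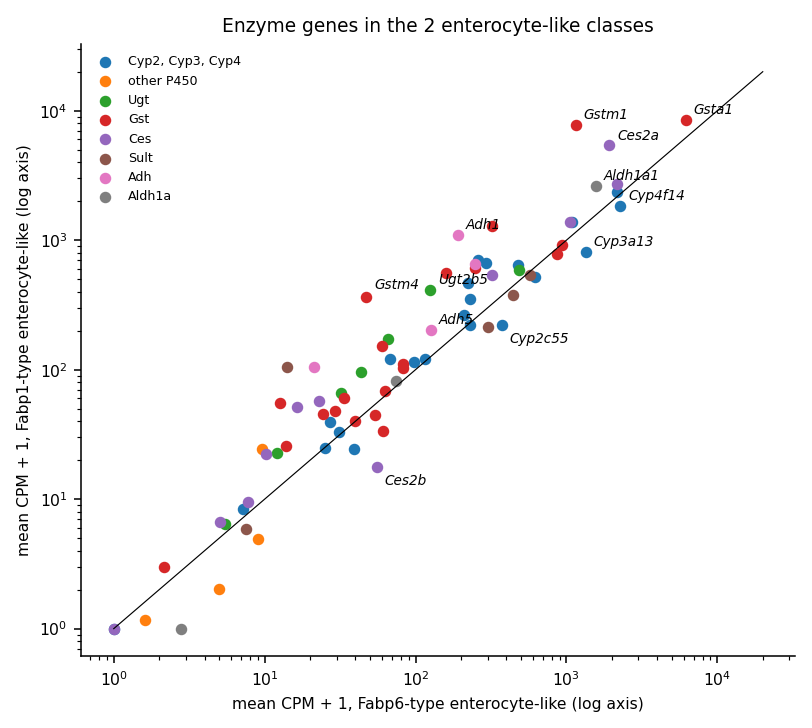
Mean CPM + 1 over the 4 libraries of each enzyme gene in Fabp6-type (horizontal) and Fabp1-type (vertical) enterocyte-like cells, both on log axes, coloured by family; the line marks equal levels. Gstm1, Gstm4, Adh1 and Ces2a lie above the line and Ces2b, Cyp2c55 and Cyp3a13 below it.

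A minority of the enzyme genes had their highest level elsewhere, and some others were also read outside enterocyte-like cells. Those named in this paragraph outside the most-counted genes of each family were chosen after their values were seen. Cyp2e1, an oxidase of ethanol and solvents, and Ces1c had 0 UMIs in enterocyte-like cells of all 4 libraries, where 3 UMIs over the libraries would be 0.280 CPM. Cyp2e1 had 7.97 and 8.39 CPM in Paneth-like cells of knockouts, against 19.5 and 13.7 CPM in those of controls, and 8.68 and 3.73 CPM in goblet-like cells of knockouts, against 8.96 and 2.11 CPM in those of controls. Ces1c had 31.9 and 26.1 CPM in Paneth-like cells of knockouts, against 28.8 and 10.5 CPM in those of controls. Both genes also had 0 UMIs in cycling-like cells, so most of their UMIs came from secretory classes. Aldh1a3 was highest in a fetal-like or regenerative-like class of 5 and 102 cells in knockouts and 10 and 52 cells in controls, with 11.6 and 467 CPM in knockouts, against 77.99 and 211 CPM in controls. Aldh1a3 is itself among the leading genes of that class, though it was not used to cluster. The fixed goblet markers Zg16 and Clca1 are there too, beside the fetal-like markers Clu, Anxa1 and Ly6d. Gsta4 had 848 and 1364 CPM in that class of knockouts, against 1333 and 2503 CPM in that of controls, and Gsta1 558 and 1265 CPM in that of knockouts, against 1244 and 2649 CPM in that of controls. All 3 genes were higher in mouse 2 than in mouse 1 in this class. Enteroendocrine-like cells had Sult1d1 at 221 and 196 CPM in knockouts, against 257 and 139.9 CPM in controls, and Cyp4b1 at 222 and 298 CPM in knockouts, against 191 and 21.3 CPM in controls. Gsta1, Sult1d1 and Cyp4b1 nonetheless had their highest mean over the 4 libraries in an enterocyte-like class. These means were 8480 CPM for Gsta1 (Fabp1 type), 440 CPM for Sult1d1 and 228 CPM for Cyp4b1 (both Fabp6 type). Adh5 was at 229 and 211 CPM in stem-like cells of knockouts, against 201 and 207 CPM in those of controls, and at 176 and 112 CPM in enterocyte-like cells of knockouts, against 175 and 120.3 CPM in those of controls. Cyp20a1 and Cyp27a1 had their highest mean in tuft-like cells, a class of 4 to 10 cells a library in which each was at 0 in 1 library.

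Within Fabp6-type cells, 69 enzyme genes passed the filter on low counts and few differed between groups. With the group alone 0 were called (smallest adjusted p 0.897), where 0.00% of all genes were called higher and 0.0119% lower. At an unadjusted p under 0.05 there were 6 of 69, against 4.35% of all genes. With the mouse as a block 0 rose and 1 fell, against 0.391% and 0.142% of all genes, and the median log2 fold change of the 69 was -0.02. The gene that fell was Cyp4v3, with 57.01 and 76.9 CPM in knockouts, against 109 and 145 CPM in controls (-0.88 ± 0.20, adjusted p = 0.0485). Both knockouts lay below both controls, as for 7 other enzyme genes, and 7 genes lay above (8 of 69 and 7 of 69, against 18.3% and 12.6% of all genes). Ugt2b36 had 55.4 and 36.5 CPM in knockouts, against 93.8 and 74.01 CPM in controls and did not pass (-0.88 ± 0.21, adjusted p = 0.0645). Cyp3a11 had 204 and 221 CPM in knockouts, against 256 and 496 CPM in controls (-0.76 ± 0.20, adjusted p = 0.131). Aldh1a1 stood at 77.3% and 70.4% of control in mice 1 and 2 (-0.41 ± 0.21, adjusted p = 0.743), where over all cells it stood at 30.8% and 28.1%. Several well-counted genes had fold changes near 0 with wide errors. These were Cyp4f14 at 0.16 ± 0.22, Cyp3a13 at 0.13 ± 0.21, Cyp2c29 at -0.03 ± 0.21, Gsta1 at 0.25 ± 0.25 and Ces2a at 0.16 ± 0.22. With such errors a missed threshold does not show that these levels were alike.

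Within Fabp1-type cells, 57 enzyme genes passed the filter. With the group alone 0 were called (smallest adjusted p 0.307), where 0.00% of all genes were called higher and 0.0251% lower. At an unadjusted p under 0.05 there were 6 of 57, against 4.50% of all genes. With the block 2 rose and 0 fell, against 0.151% and 0.0754% of all genes, with a median of 0.21. Cyp3a13 had 1035 and 1197 CPM in knockouts, against 625 and 373 CPM in controls (1.13 ± 0.27, adjusted p = 0.0196). Ces2c had 3598 and 3715 CPM in knockouts, against 2192 and 1351 CPM in controls (1.06 ± 0.25, adjusted p = 0.0129). In both genes both knockouts lay above both controls. Such a complete separation upward held for 22 of the 57 genes and downward for 3, against 18.7% and 16.1% of all genes. In Fabp6-type cells Ces2c had 2199 and 2640.2 CPM in knockouts, against 1655 and 2209.7 CPM in controls (0.36 ± 0.22, adjusted p = 0.821). Cyp3a11, which fell over all cells, had 644 and 991 CPM in Fabp1-type cells of knockouts, against 586 and 452 CPM in those of controls (0.57 ± 0.28, adjusted p = 0.976). At a coarser clustering that merged both types with cluster 9 its log2 fold change was -0.74.

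With both enterocyte-like types summed, 1 of 72 genes rose and 4 fell with the block, against 1.25% and 0.829% of all genes, and 0 passed with the group alone (0.00% and 0.00% of all genes). Ces2b rose, with 69.4 and 50.8 CPM in knockouts, against 24.5 and 36.9 CPM in controls (0.91 ± 0.20, adjusted p = 5.41e-04). Cyp4v3 (-0.76), Ugt2b36 (-0.77), Ces1g (-0.82) and Cyp3a11 (-0.58, adjusted p = 0.0469) fell. The mix of types in mouse 1, given above, moves with this sum, and its part in these calls was not tested.

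**Figure D5:**
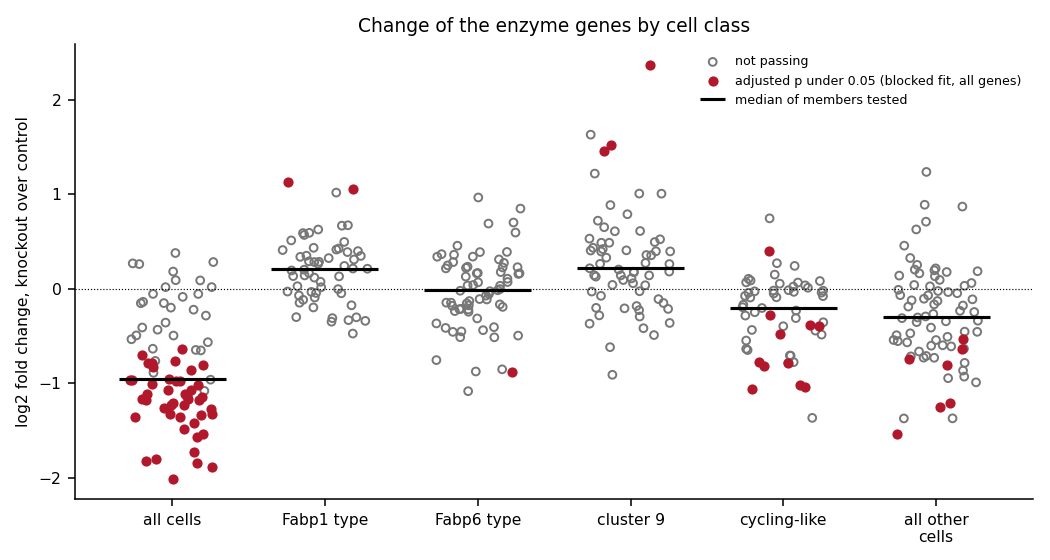
Log2 fold change, knockout over control, of each enzyme gene tested in 6 sets of cells from the edgeR fit with the mouse as a block; red points passed, open points did not, and the bar is the median. The median is -0.95 in all cells, 0.21 in Fabp1-type, -0.02 in Fabp6-type, 0.21 in cluster 9, -0.20 in cycling-like and -0.30 in all other cells.

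In cluster 9, 3 of 63 enzyme genes rose with the block and 0 fell, against 0.604% and 0.0881% of all genes (0 with the group alone, against 0.00% and 0.00%). Adh6a had 103 and 92.1 CPM in knockouts, against 30.6 and 9.97 CPM in controls (2.37 ± 0.32, adjusted p = 7.41e-05). Gstm1 had 770.3 and 869 CPM in knockouts, against 454 and 205 CPM in controls (1.46 ± 0.24, adjusted p = 8.31e-04), and Gstm4 had 33.5 and 49.2 CPM in knockouts, against 21.2 and 9.06 CPM in controls (1.52 ± 0.37). In these 3 genes both knockouts exceeded both controls. The genes are among those higher in the Fabp1 type, and Fabp1 and Fabp2 rose in cluster 9 too, so the place of its cells between the classes moves with these values and its part was not tested.

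Outside the enterocyte-like classes, 7 of 76 enzyme genes fell with the block and 0 rose, against 1.99% and 1.09% of all genes (0 with the group alone, against 0.00% and 0.00%). With the block and DESeq2 size factors 2 fell, against 0.847% of all genes, and DESeq2 with the block called 3 of 77 lower, against 0.696%. Aldh1a1 had 10.2 and 9.68 CPM in knockouts, against 22.2 and 35.01 CPM in controls (-1.54 ± 0.17, adjusted p = 0.00973). The groups did not overlap. Cyp2b10, Cyp2c55, Gsta1, Gsta4, Ces1f and Sult1d1 also fell, with log2 fold changes from -1.25 (Cyp2b10) to -0.53 (Sult1d1). Gsta1 and Gsta4 followed the mouse more than the group, with Gsta1 at 65.3 and 305 CPM in knockouts 1 and 2, against 85.8 and 664 CPM in controls 1 and 2. This set holds the fetal-like class and cluster 9, which took 0.309% and 7.22% (fetal-like) and 2.68% and 3.18% (cluster 9) of all UMIs in knockouts, against 1.03% and 12.3% and 4.31% and 5.04% in controls, and the part of that mix was not tested.

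Cycling-like cells gave a narrower view, with 1 of 56 enzyme genes higher and 10 lower with the block, against 6.0% and 5.76% of all genes (0 with the group alone, against 0.109% and 0.0997%). The share that fell was above the background and the share that rose below it. Gsta4 had 63.6 and 130.4 CPM in knockouts, against 97.1 and 157 CPM in controls (-0.47 ± 0.08, adjusted p = 6.46e-08). Gsta1 had 7.11 and 15.1 CPM in knockouts, against 14.04 and 30.3 CPM in controls (-1.02 ± 0.16, adjusted p = 6.28e-09), and Aldh1a1 had 3.72 and 4.70 CPM in knockouts, against 8.54 and 7.82 CPM in controls (-1.05 ± 0.25, adjusted p = 7.60e-04). For Gsta1 the groups overlapped, and for Aldh1a1 they did not. Free RNA from enterocytes can add UMIs at such low levels. The 15 enterocyte genes outside the enzyme set summed to 455 and 430.2 CPM in cycling-like cells of knockouts, against 380.4 and 314 CPM in those of controls. The part of free RNA in these values was not tested. Cyp39a1 had 7.20 and 5.07 CPM in knockouts, against 11.5 and 9.33 CPM in controls (-0.78 ± 0.21), and Cyp27a1 had 3.23 and 2.60 CPM in knockouts, against 5.79 and 6.56 CPM in controls (-1.06 ± 0.29). Ces2e rose (0.40 ± 0.13, adjusted p = 0.0239), and Cyp2j6, Cyp2s1, Cyp4f13, Gstm3 and Gstp3 fell.

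The cluster named stem-like had 2 fixed stem markers (Olfm4 and Gkn3) among its leading genes, but was led by Ung and also had the DNA replication genes Dtl, Mcm2, Cdc6 and Mcm4 there. In stem-like cells 3 of 47 fell and 0 rose, against 1.54% and 0.796% of all genes (0 with the group alone, against 0.0103% and 0.00%). They were Aldh1a1, Gsta1 and Gsta4, with Gsta4 at 66.8 and 166 CPM in knockouts, against 115 and 134 CPM in controls (-0.45 ± 0.12, adjusted p = 0.00915). For Gsta4 and Aldh1a1 the knockout lay below its control in mouse 1 and above it in mouse 2, where control 2 held 17 stem-like cells, so these calls rest on mouse 1. In goblet-like cells Cyp2c68 alone of 33 fell and 0 rose, against 1.36% and 1.51% of all genes (0 with the group alone, against 0.00% and 0.00%). It had 34.7 and 15.8 CPM in knockouts, against 49.5 and 39.7 CPM in controls (-0.97 ± 0.23, adjusted p = 0.00236). In enteroendocrine-like cells Gstm1 rose (1.37) and Adh1 (-1.11), Gsta4 (-1.63) and Gsta1 (-2.68) fell of 31, against 0.158% of all genes higher and 0.231% lower (0 with the group alone, against 0.00% and 0.00%), though control 2 held 11 such cells. Gsta1 had 10.4 and 14.7 CPM in enteroendocrine-like cells of knockouts, against 2.26 and 195 CPM in those of controls, so its call rests on control 2. In Paneth-like cells 0 of 23 passed with the block, against 0.0906% of all genes higher and 0.106% lower, and 4 of 23 had an unadjusted p under 0.05, against 10.5% of all genes. With the group alone 0 passed in edgeR, against 0.00% and 0.0151% of all genes, and 3 of 23 had an unadjusted p under 0.05, against 6.96% of all genes. DESeq2 called 0 in either design.

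Clusters left without a name also held enzyme RNA. In cluster 1, which had 75 and 387 cells in knockouts, against 24 and 79 in controls, 3 of 50 enzyme genes rose and 3 fell with the mouse as a block (edgeR), against 2.29% and 2.91% of all genes. With the group alone 0 passed, against 0.532% and 0.391% of all genes. Gstm1 had 205 and 219 CPM in cluster 1 of knockouts, against 182 and 107 CPM in that of controls (0.63 ± 0.14, adjusted p = 0.012). Ces2e and Gstt2 also rose. Cyp2c55 had 2.45 and 2.70 CPM in cluster 1 of knockouts, against 5.87 and 7.59 CPM in that of controls (-1.50 ± 0.39, adjusted p = 0.0342), and Sult1c2 and Cyp27a1 fell with it. In cluster 10, with 69 and 117 cells in knockouts, against 57 and 16 in controls, 0 of 39 rose and 5 fell, against 1.31% and 1.25% of all genes (0 with the group alone, against 0.210% and 0.231%). They were Gsta1, Gsta4, Gstm1, Ugt2b34 and Ugt2b35. Gstm1 had 114 and 132 CPM in cluster 10 of knockouts, against 184 and 180.0 CPM in that of controls (-0.63 ± 0.13, adjusted p = 0.017). Gstm1 was thus lower in this cluster and higher in cluster 1, cluster 9 and enteroendocrine-like cells of knockouts, and the difference between classes was not tested.

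Whether the knockout effect differed between enterocyte-like and all other cells was asked with a model of both sets of cells, in which each library was a block and the interaction of group and cell set was tested. None of the 77 genes passed (smallest adjusted p 0.527), against 0.00% of all genes in each direction. At an unadjusted p under 0.05 there were 13 of 77, against 5.41% of all genes. Calls of this model varied with the library left out. With a term for the mouse in each cell set, added after seeing the data, 12 passed. In 8 of these 12 the fold change was more positive in enterocyte-like cells and in 4 more negative, against 2.19% and 0.539% of all genes. Cyp2c55 had 257 and 451 CPM in enterocyte-like cells of knockouts, against 199 and 454 CPM in those of controls, and 4.62 and 8.95 CPM in other cells of knockouts, against 6.94 and 27.1 CPM in those of controls. Its difference of log2 fold changes was 1.35 ± 0.20 (adjusted p = 1.04e-08). Aldh1a1 had a difference of 1.12 ± 0.30 (adjusted p = 0.0114), with 1966 and 1372 CPM in enterocyte-like cells of knockouts, against 2399 and 1929 CPM in those of controls.

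Sums with one component held fixed describe how much of the all-cell difference goes with the make-up of the libraries. Holding each class at its control level and letting the class shares of UMIs move gave a median log2 change of the 77 genes of -0.72 in mouse 1 and -0.74 in mouse 2, where the observed medians were -0.69 and -0.80. Holding the shares at those of the control and letting the levels move gave medians of 0.05 in mouse 1 and -0.08 in mouse 2. For single genes this value ran from -0.58 (Ces1g) to 1.02 (Ces2b) in mouse 1. In mouse 2 it ran from -0.96 (Cyp3a25) to 1.09 (Aldh1a3). The 8 genes named for the largest change over all cells had -0.38 (Ugt2b36) to 0.38 (Cyp3a25) in mouse 1. In mouse 2 these 8 had -0.96 (Cyp3a25) to -0.11 (Ugt2b5). The shares themselves were measured in the same libraries, and these values carry no test.

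Other genes of these pathways were read from 8 lists chosen with earlier results of these data known. Over all cells 8.29% of all genes fell and 4.43% rose, which is the background for the counts that follow. Of 22 tested receptors and transcription factors 9 fell and 0 rose over all cells, among them the fatty acid receptor gene Ppara (-1.41 ± 0.16, adjusted p = 0.00516), Nr1i3, which encodes CAR (-1.36 ± 0.12), and Maf (-1.21 ± 0.18). Of 14 P450 partner and haem genes 3 fell, with Por, the electron donor of microsomal P450 enzymes, at -0.57 ± 0.08 (adjusted p = 0.0125), Pgrmc1 at -0.54 ± 0.10 and Cyb5r3 at -0.31 ± 0.08. Of 14 transporters 9 fell, with the drug exporter gene Slc47a1 at -1.75 ± 0.32 (adjusted p = 0.0219), the peptide carrier gene Slc15a1 at -1.33 ± 0.15 and the carnitine carrier gene Slc22a5 at -1.29 ± 0.29. Of 19 NRF2 targets and glutathione genes 4 fell (Ggt1 -1.29 ± 0.11, Gclc -0.58 ± 0.10, Gpx4 -0.56 ± 0.11 and Srxn1) and Gpx2 rose. Of 19 retinoid handling genes 6 fell, with Rdh7 at -1.93 ± 0.21 (adjusted p = 0.00499), the retinol carrier gene Rbp2 at -1.24 ± 0.13 and Dgat1 at -1.22 ± 0.10. Of 10 genes of cofactor supply 3 fell and 1 rose (Papss2 -0.72 ± 0.11, Ugdh -0.56 ± 0.08 and Mat2a 0.54 ± 0.09). Of 28 other xenobiotic enzymes 13 fell and 0 rose (Akr1b7 -1.84 ± 0.26, Akr1c14 -1.42 ± 0.19 and Ephx2 -1.40 ± 0.17). Of 15 enterocyte genes of other functions 14 fell, with lactase Lct at -2.55 ± 0.37, trehalase Treh at -1.93 ± 0.16 and aminopeptidase Anpep at -1.69 ± 0.19. The medians over these lists ran from -1.30 (enterocyte genes) to -0.07 (NRF2 targets), where the median of all genes was -0.01. Within Fabp6-type cells 1 gene of the 8 lists passed, Akr1b8, which rose, where 0.391% of all genes rose and 0.142% fell. Within Fabp1-type cells 0 passed, where 0.151% of all genes rose and 0.0754% fell. The single call is not read as a result about the lists.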

How the data were processed

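Single-cell RNA of 4 organoid libraries was read with a droplet method. Per the submitters' processing notes Cell Ranger 3.0.1 and mm10 were used, and the deposited matrices hold raw UMI counts per gene and cell barcode, per the file headers. The counting annotation, strand setting and library end are not given in the sources used here, so overlapping and near-identical genes are uncertain. No mitochondrial genes are among the 31040 listed, so RNA quality was not measured that way.

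Of 5602 barcodes (total depth 28597336 and 35592468 UMIs in knockouts 1 and 2, against 27855911 and 22139560 in controls 1 and 2), 173 with under 500 genes were removed. Scrublet's own threshold marked 18 doublets, so the highest-scoring barcodes were removed instead, at 0.8% per 1000 barcodes (67), which left 5362. Cells were clustered with scanpy 1.11.5 (2000 variable genes without the enzyme genes, 30 principal components, 15 neighbours, Leiden resolution 1, leidenalg 0.10.2) and clusters were named from marker lists.

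Counts were summed per library and class and tested across libraries with edgeR 4.0.16 (filterByExpr, TMM, quasi-likelihood; threshold 0.05 after Benjamini-Hochberg adjustment over all genes tested), in classes with 10 or more cells in each library. The main model had the group alone, and a second model had the mouse as a block, to which the words rose and fell refer because the deposited files tag control and knockout libraries of a number with the same mouse. Their deviations from the group means correlated at 0.660 over 13246 genes in all cells. Within single classes the correlation was lower, from 0.0288 in the Fabp1 type to 0.323 in goblet-like cells. It was 0.265 in the Fabp6 type and 0.0560 in enteroendocrine-like cells. With 2 libraries a group an exact permutation test cannot go below 0.333, and the block leaves 1 residual degree of freedom, so variance is largely borrowed across genes. The labels do not say that the organoid cultures were separate beyond the mouse. DESeq2 1.42.0, other size factors, filters, clusterings and leaving out each library were alternatives. The fits were tested on simulated counts. CPM scales a gene to a total of 1000000 UMIs in the summed cells and is not corrected for gene length, so levels are not compared between genes.

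Genes named were the 4 with the most UMIs in each family, the 8 with the largest change over all cells among those passing at an average log2 CPM of 3 or more, up to 5 passing in each enterocyte-like class, and 3 per pathway list. Other named genes were chosen after their values were seen. Members, lists and tests were chosen with earlier results of these data known.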

Additional observations from a re-analysis of the deposited data

Results flagged for a closer look

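The knockout effect in enterocyte-like cells differed from that in all other cells for 12 enzyme genes in the edgeR interaction fit with a mouse term in each cell set, an alternative added after seeing the data, and for 0 of 77 in the model without that term (13 at an unadjusted p under 0.05). Each value is the log2 fold change in enterocyte-like cells minus that in other cells. It was positive for Cyp2c55 (1.35 ± 0.20), Aldh1a1 (1.12 ± 0.30), Cyp2s1 (1.105), Cyp3a13 (1.09 ± 0.28), Ces2c (0.97 ± 0.30), Cyp2b10 (0.90 ± 0.25), Cyp2c66 (0.86 ± 0.22) and Sult1b1 (0.72 ± 0.17). It was negative for Ces1g (-1.74 ± 0.50), Sult6b2 (-1.47 ± 0.43), Cyp4b1 (-1.02 ± 0.22) and Adh6a (-0.84 ± 0.25). The other cells include enteroendocrine-like cells, where Cyp4b1 had 222 and 298 CPM in knockouts, against 191 and 21.3 CPM in controls. Control 2 held 11 such cells. Ces1g had 25.5 and 17.1 CPM in enterocyte-like cells of knockouts, against 57.2 and 25.7 CPM in those of controls, and 0.857 and 1.07 CPM in other cells of knockouts, against 0.406 and 0.628 CPM in those of controls. Adh6a had 447 and 263 CPM in enterocyte-like cells of knockouts, against 483 and 216 CPM in those of controls, and 3.28 and 4.30 CPM in other cells of knockouts, against 2.15 and 1.77 CPM in those of controls. The shares of cluster 9 and of fetal-like cells in all UMIs were lower in the knockout of each mouse. The mix of enterocyte types differed in mouse 1. In other cells Ces1g and Adh6a were higher in knockouts, and Adh6a rose within cluster 9, as given above. The part of these cell mixes and class levels in the differences was not tested.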

How the results depend on the processing

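With the group alone in edgeR, with all 4 libraries, the default filter and these clusters, 0 enzyme genes passed in each set of cells. Over all cells 15 passed with DESeq2, against 0.512% of all genes lower and 0.103% higher. With DESeq2 and the replicate block 36 passed, against 3.18% lower and 1.27% higher. The block in edgeR gave 45 (against 8.29% lower and 4.43% higher), 48 with DESeq2 size factors and 47 with no doublet removal. Where no share over all genes stands beside a count in this section, the count shows only how calls moved with the setting. In Fabp6-type cells 1 passed with no filter, 1 with the block and 3 with the block and DESeq2 size factors. There 1 passed at Leiden resolution 1.5 and 2 with the enzyme genes used to cluster. In Fabp1-type cells the block gave 2, and 2 with DESeq2 size factors. At resolution 0.6 it gave 6, at 1.5 it gave 2 and with the enzyme genes used to cluster 2. In both types summed the block gave 5, with DESeq2 size factors 4, at resolution 0.6 it gave 6, at 1.5 it gave 3, with the enzyme genes used to cluster 5 and without doublet removal 6.

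In all other cells DESeq2 gave 1, DESeq2 with the block 3, the block 7 and the block with DESeq2 size factors 2. In cycling-like cells DESeq2 with the block gave 1, no filter 5, the block 11 and the block with DESeq2 size factors 7. In cluster 9 DESeq2 gave 1 with or without the block, no filter 3, the block 3 and the block with DESeq2 size factors 4. In stem-like cells the block gave 3 with either scaling, and in goblet-like cells 1 with either scaling. In enteroendocrine-like cells no filter gave 5, the block 4, with DESeq2 size factors 2, and leaving out a library 0 to 8 (8 without control 1). The interaction gave 6 with no filter and 12 with the block. Counts in several sets of cells also moved when a library was left out.

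The enzyme genes' percent of UMIs in both types summed (3.60 in knockouts, 3.57 in controls) was 2.89 and 3.04 at resolution 0.6, and 2.87 and 3.01 with no doublet removal. In the Fabp1 type (5.55 in knockouts, 4.45 in controls) it was 2.89 and 3.04 at 0.6, 3.65 and 3.75 at 1.5, and 2.30 and 2.48 with no doublet removal, since that name then covered more cells (at 0.6 both types and cluster 9). Over all cells, leaving out 1 library gave -2.40 to 0.22 for Cyp3a13, -3.10 to 0.37 for Cyp2c29 and -2.08 to 0.42 for Gsta4, the positive values without control 2, and in the Fabp1 type Cyp3a11 was -0.74 with the block at resolution 0.6. The cause of each other change was not tested. With a library left out the block has no residual degrees of freedom, so those fits were run without it, and the lone sample is assumed to vary like the other group. Fabp1-type values in mouse 2 are limited by 12 and 16 cells.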

Other observations

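Of the 178 genes that matched by symbol, 101 stayed under 100 UMIs and 41 of them had 0 UMIs in all 4 libraries. They included Aldh1a2, a retinaldehyde dehydrogenase of mesenchymal tissue, with 0 UMIs.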
